A study of Mus musculus with 6 samples.

Results

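The DNA repair genes described here are the 62 mouse genes whose names on the array place them in the Fanc, Xrcc, Rad, Brca, Msh, Mlh, Pms, Ercc, Lig and Parp families, together with Xpa, Xpc, Ogg1, Ung, Atm, Chek1 and Chek2. They were chosen by name and not by a cut on any measured value, but earlier results of these data were known at the choice. They are represented by 112 of the 41174 probes and 62 of the 27670 genes on the array. Atr also belongs to the definition, but no probe was found under that name, and it is not analysed here. The array names Rad51l1, Rad51l3 and Rad9 stand for the genes now called Rad51b, Rad51d and Rad9a. Expression was measured in metanephroi, the embryonic kidneys, of CD1 mouse embryos at E13.5, which were grown as explants on filters. Both groups were treated for 6 h, one with the histone deacetylase (HDAC) inhibitor Scriptaid and the other with its inactive structural relative Nullscript, each at 2.0 µg/ml. RNA of the treatments was hybridised as Cy3 and Cy5 channels of the same Agilent array, and each of 3 biological replicates was measured on a pair of arrays with exchanged dyes, 6 arrays in all. How many embryos or litters were pooled for each replicate is not stated in the labels.

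DNA repair is carried out by several routes that recognise different damage. Base excision repair removes single altered bases and seals single-strand breaks, nucleotide excision repair cuts out stretches around bulky lesions, and mismatch repair corrects replication errors. Double-strand breaks are joined directly by non-homologous end joining or copied from the sister chromatid by homologous recombination, and the Fanconi anemia pathway handles crosslinks between the strands. Many of these genes are transcribed most strongly in dividing cells, and the embryonic kidney at this stage consists largely of dividing progenitors and branching epithelium.

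Values are log2 ratios with the channel labelled Scriptaid in the numerator and that labelled Nullscript in the denominator, so that a positive ratio means more signal in the channel labelled Scriptaid. The direction of these ratios is not settled. The genes that HDAC inhibitors are known to induce elsewhere were all lower in the channel labelled Scriptaid, with 10 of 10 called and a median log2 ratio of -1.01. Of the genes they are known to repress, 5 of 7 were called higher in the channel labelled Scriptaid, with a median of 0.59. H1f0, a linker histone gene of the first list, had log2 ratios of -1.18, -0.94 and -0.88 in the 3 replicates. If the drug names were exchanged between the channels, every sign below would turn and the 2 directions of each count would trade places. A gene is "called" when limma gave it a Benjamini-Hochberg adjusted p under 0.05 over all genes tested, and it is called positive or negative by the sign of its ratio.

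All 62 DNA repair genes passed the filter on dim probes, as did 111 of their 112 probes. The exception was a second probe of Ercc6. Of the 62 genes, 27 were called positive (43.5%) and 21 negative (33.9%), and 14 were not called. Over all 26500 genes tested, 46.2% were called, 22.5% positive and 23.7% negative. Bright probes are called more often, and 49 of the 62 genes had a mean log2 intensity of at least 9. Of those, 40 were called (81.6%), against 61.2% of all genes that bright. The repair genes thus divided between the directions, and their median log2 ratio was 0.10, beside -0.01 for all genes. This median was 0.03, 0.06 and 0.08 in the single replicates, and 0.05 without replicate 3. The median size of the ratio, regardless of sign, was 0.27 for the repair genes and 0.10 for all genes. The ratios ran from -0.67 for Fanca to 0.75 for Rad21. A change of over 1.5-fold was reached by 9 genes (14.5%, beside 10.9% of all genes), 7 positive and 2 negative, and none reached 2-fold. Neither this share nor the median size was matched for the brightness of the probes. In these mixed tissues, fewer cells of a type and less RNA per cell cannot be told apart.

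**Figure D1:**
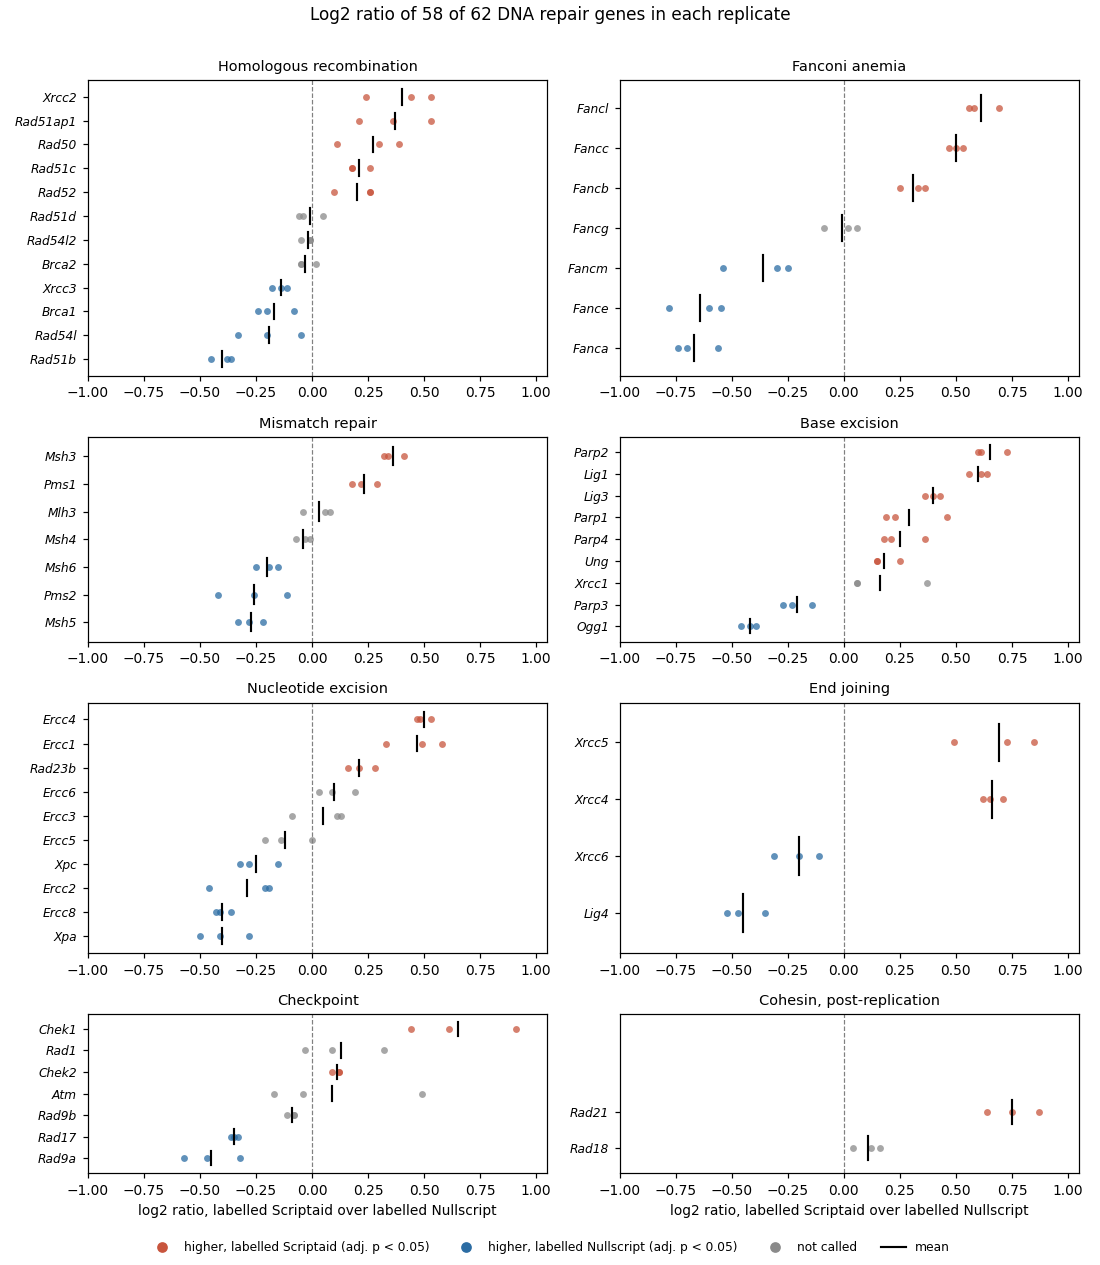
Log2 ratio (horizontal axis, positive for more signal in the channel labelled Scriptaid) of 58 of the 62 DNA repair genes, in 1 panel per repair route. Points are the 3 replicates, black lines their means, and colours show whether a gene was called positive (24), called negative (20) or not called (14). Genes on both sides of 0 occur in every panel except that of cohesin and post-replication repair, which holds Rad21 and Rad18.

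The promoters of the repair genes were read for the letters of the CCAAT box, which the factor NF-Y binds. They were also read for letters bound by E2F factors, which control many S-phase genes. The table of RefSeq promoters (build GRCm38.p6) covers 250 bases before to 50 bases after each gene start and held 50 of the 62 genes. The letters CCAAT, on either strand, occurred in the promoters of 30 of these 50 genes (60.0%), beside 41.1% of all 27025 genes with a promoter in the table and 42.2% of the genes tested on the arrays. Counted by promoter, 37.4% of all 32851 promoters of this length held them. The share differed by the direction of the call. It was 16 of 18 among the genes called negative (88.9%), 9 of 21 among those called positive (42.9%) and 5 of 11 among those not called (45.5%). Over all genes tested, the shares were 46.3% of those called negative, 39.2% of those called positive and 41.6% of those not called. Lig4 and Rad17 were the genes called negative without the letters. This division of the promoters by call was made after the values were seen, and it is a description without a test.

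The sequences below show examples of each kind, picked after their values were seen. Chek1 and Fancl have a positive ratio and no match to CCAAT. Xrcc5 is one of the 9 positive genes with a match, and Fance, Ogg1 and Ercc2 have a negative ratio and 1 to 3 matches. Each is read 5′ to 3′ from the bases before the gene start that lie outside annotated genes, with CCAAT or its complement ATTGG in capitals.
Chek1 chr9:36726659-36726908 (-): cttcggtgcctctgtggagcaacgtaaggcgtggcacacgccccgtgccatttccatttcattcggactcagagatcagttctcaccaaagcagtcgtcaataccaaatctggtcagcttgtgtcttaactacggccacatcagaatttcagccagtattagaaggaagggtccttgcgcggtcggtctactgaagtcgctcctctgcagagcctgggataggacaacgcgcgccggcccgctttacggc
Fancl chr11:26386834-26387083 (+): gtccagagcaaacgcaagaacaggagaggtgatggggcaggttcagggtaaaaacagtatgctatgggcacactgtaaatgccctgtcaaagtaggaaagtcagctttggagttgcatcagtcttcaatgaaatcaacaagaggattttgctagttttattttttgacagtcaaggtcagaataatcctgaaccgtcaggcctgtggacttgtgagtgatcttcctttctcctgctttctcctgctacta
Xrcc5 chr1:72307171-72307416 (+): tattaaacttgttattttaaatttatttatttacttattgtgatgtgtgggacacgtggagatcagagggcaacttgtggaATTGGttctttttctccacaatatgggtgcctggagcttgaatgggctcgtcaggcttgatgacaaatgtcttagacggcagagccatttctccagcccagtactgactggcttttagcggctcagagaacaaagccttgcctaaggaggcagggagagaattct
Fance chr17:28313280-28313529 (+): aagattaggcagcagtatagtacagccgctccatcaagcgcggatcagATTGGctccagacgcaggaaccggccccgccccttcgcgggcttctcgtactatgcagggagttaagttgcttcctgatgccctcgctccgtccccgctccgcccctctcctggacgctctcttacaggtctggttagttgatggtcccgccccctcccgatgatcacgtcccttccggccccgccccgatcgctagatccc
Ogg1 chr6:113326726-113326971 (+): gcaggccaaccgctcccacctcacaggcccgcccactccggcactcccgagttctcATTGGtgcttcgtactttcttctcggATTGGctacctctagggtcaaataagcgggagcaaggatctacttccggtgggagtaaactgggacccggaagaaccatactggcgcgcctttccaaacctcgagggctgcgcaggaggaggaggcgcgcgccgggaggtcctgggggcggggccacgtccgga
Ercc2 chr7:19381767-19382016 (+): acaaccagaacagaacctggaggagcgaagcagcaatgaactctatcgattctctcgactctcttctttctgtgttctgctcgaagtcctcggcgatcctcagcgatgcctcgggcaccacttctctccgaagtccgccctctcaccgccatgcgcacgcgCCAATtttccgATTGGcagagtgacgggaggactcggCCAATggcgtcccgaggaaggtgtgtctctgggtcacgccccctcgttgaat
The match of Xrcc5 starts at position -169 from the gene start and that of Fance at -202. Those of Ogg1 start at -194 and -168, and those of Ercc2 between -89 and -52. No match means only that the letters are not in this window. A match is one of letters alone, and binding was not examined.

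The E2F letters TTTGGCGC, TTTCCCGC, TTTCGCGC and TTTGCCGC, searched on both strands with overlaps allowed, occurred in the promoters of 9 of the 50 genes, beside 2.6% of all genes with a promoter and 3.62% of the genes tested. Counted by promoter, 2.26% of all promoters held them. The carriers were Brca2, Chek2, Fancg, Lig1, Msh3, Msh5, Msh6, Rad51c and Xrcc6. They were spread over the calls, with 4 of 21 among genes called positive, 3 of 18 among genes called negative and 2 of 11 among those not called. Their log2 ratios ran from -0.27 for Msh5 to 0.60 for Lig1. Over all genes tested, the E2F letters occurred in 5.39% of those called positive, 3.67% of those called negative and 2.59% of those not called.

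Homologous recombination copies the lost sequence of a broken strand from an intact one. Of the 13 genes placed in this route, 6 were called positive, 4 negative and 3 not, with a median of -0.01. Rad54l2, not called at -0.02, is counted among them by its name alone. Rad51b, a recombination mediator, gave -0.36, -0.45 and -0.38 in the 3 replicates, a mean of -0.40 ± 0.04 (SD, n = 3) and an adjusted p of 0.000618. The related mediators were divided, with Xrcc2 at 0.40 and Rad51c at 0.21 called positive, Xrcc3 at -0.14 called negative, and Rad51d at -0.01 not called. The value of Rad51d is that of its brightest probe. As a mean over its probes, Rad51d was called positive at 0.27 (adjusted p = 0.00188). Xrcc2 had further probes at 0.29, called in the fit over probes, and at 0.06 and -0.01, not called. The probe at 0.06 was nearly as bright as the one used, with mean log2 intensities of 8.22 and 8.26. Over the 15 alternatives the ratio of Xrcc2 ran from 0.18 to 0.48, and the call was kept. Xrcc3 lost its call without replicate 2 (adjusted p = 0.0546), without replicate 3 (0.124), under median centring (0.0775) and on the arrays with Scriptaid in Cy3 alone (0.187). Rad51c lost its call on the arrays with Scriptaid in Cy5 alone (adjusted p = 0.0513). These 4 mediators are not among the genes that the rule for named genes takes. They, and the other genes given in the following paragraphs that this rule does not take, were picked after their values were seen.

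Brca1 and Brca2 also act in this route, Brca1 in the resection of broken ends and Brca2 in building the filament that searches for the intact copy. Brca1 gave -0.08, -0.24 and -0.20, a mean of -0.17 ± 0.09 (SD, n = 3) and an adjusted p of 0.0238. All 3 replicates were negative, but the call was lost without replicate 2 (adjusted p = 0.0908), without replicate 3 (0.145), with the slide as a block (0.0651), under median centring (0.315) and on the arrays with Scriptaid in Cy5 alone (0.275). Brca2 gave 0.02, -0.05 and -0.05 and was not called (mean -0.03 ± 0.04 SD, n = 3, adjusted p = 0.563). Rad50, the coiled-coil subunit of the complex that first binds broken ends, had a mean of 0.27 and kept its call in 12 of 15 alternatives. It stood at 0.48 on the arrays with Scriptaid in Cy3 and at 0.06 on those with Scriptaid in Cy5, where it was not called (adjusted p = 0.437). Without replicate 2 its adjusted p was 0.0644 and without replicate 3 it was 0.0922. Rad54l, a motor protein that remodels chromatin during recombination, had a mean of -0.19 and kept its call in 7 of 15 alternatives. Its adjusted p was 0.127 without replicate 1 and 0.135 without replicate 2, and the highest was 0.44, on the arrays with Scriptaid in Cy3 alone, where the ratio was -0.10.

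In the Fanconi anemia pathway, a core complex attaches ubiquitin to its substrates when strands are crosslinked. The 7 genes of this route had the widest spread among the routes with over 4 genes, from -0.67 to 0.61, with 3 called in each direction and a median of -0.01. Fancl, the ubiquitin ligase of the core complex, gave 0.69, 0.58 and 0.56 (mean 0.61 ± 0.07 SD, n = 3, adjusted p = 0.000326). Fancc gave 0.53, 0.47 and 0.50 (mean 0.50 ± 0.03 SD, n = 3, adjusted p = 0.000287). Both are subunits of the complex that also holds Fanca and Fance, the genes with the most negative ratios of all 62. Fanca gave -0.74, -0.56 and -0.70 (mean -0.67 ± 0.10 SD, n = 3, adjusted p = 0.000383). Fance, which links the core to its substrate, gave -0.78, -0.55 and -0.60 (mean -0.64 ± 0.12 SD, n = 3, adjusted p = 0.000628). The replicates of the positive and negative subunits lay far apart, and Fancl exceeded Fanca by 1.27 ± 0.15 (SD, n = 3) on the log2 scale. The second and dimmer probe of Fanca gave -0.03 and was not called, and as a mean over its probes Fanca stood at -0.35. Of the remaining core subunits, Fancb was called positive at 0.31, Fancg was not called at -0.01, and Fancm, the motor protein that anchors the core to DNA, was called negative at -0.36. As a mean over its probes, Fancg was called positive at 0.18 (adjusted p = 0.00945). Fancm lost its call on the arrays with Scriptaid in Cy3 alone (-0.29, adjusted p = 0.0873).

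Non-homologous end joining was represented by 4 genes, all called, 2 in each direction, with a median of 0.23. Xrcc5 and Xrcc6 encode the subunits of the Ku heterodimer, the ring that caps broken ends. Xrcc5 gave 0.85, 0.49 and 0.73 (mean 0.69 ± 0.18 SD, n = 3, adjusted p = 0.00145). Xrcc6 gave -0.31, -0.20 and -0.11 (mean -0.20 ± 0.10 SD, n = 3, adjusted p = 0.0187). The subunits thus had ratios of opposite sign in each replicate, 0.89 ± 0.24 apart (SD, n = 3). The negative call of Xrcc6 was lost without replicate 2 (adjusted p = 0.0594), under median centring (0.106) and on the arrays with Scriptaid in Cy3 alone (0.236). Xrcc4, the scaffold of DNA ligase IV, gave 0.65, 0.62 and 0.71 (mean 0.66 ± 0.05 SD, n = 3, adjusted p = 0.000199). Lig4, the ligase itself, gave -0.35, -0.47 and -0.52 (mean -0.45 ± 0.09 SD, n = 3, adjusted p = 0.00105). Xrcc4 exceeded Lig4 by 1.11 ± 0.12 (SD, n = 3), and both kept their calls in all 15 alternatives. These are the values of the brightest probes. The further probes of Xrcc4 gave 0.34, called in the fit over probes, and 0.03, not called. As means over all probes of a gene, Xrcc4 stood at 0.34 and Lig4 at -0.37.

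**Figure D2:**
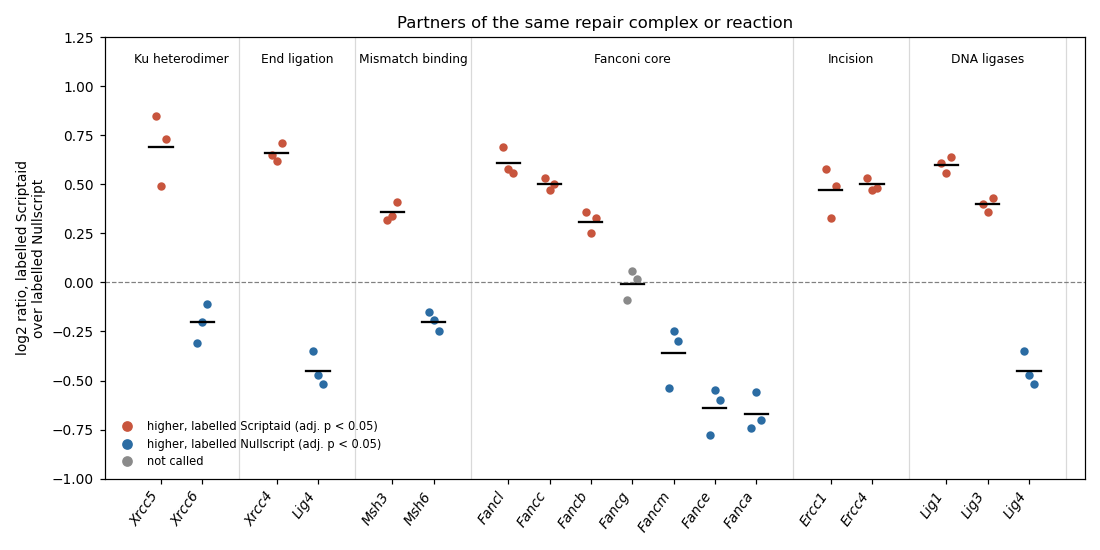
Log2 ratio (vertical axis, positive for more signal in the channel labelled Scriptaid) of genes that act in the same complex or reaction, with points for the 3 replicates and lines for their means. Xrcc5 and Xrcc6, Xrcc4 and Lig4, and Msh3 and Msh6 lie on opposite sides of 0 in all 3 replicates, whereas Ercc1 and Ercc4 lie on the same side. The groups were picked after the values were seen.

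Mismatch repair had 9 genes, of which 3 were called positive, 4 negative and 2 not, with a median of -0.04 and none over 1.5-fold. Pms2, the nuclease subunit of a MutL complex, had a mean of -0.26 ± 0.15 (SD, n = 3). The call of Pms2 was lost without replicate 2 (adjusted p = 0.0552), without replicate 3 (0.12), with the slide as a block (0.0667) and under median centring (0.119). Msh3, which recognises larger loops, was called positive at 0.36, whereas Msh6, which recognises single mismatches, was called negative at -0.20, and the pair lay 0.55 ± 0.10 apart (SD, n = 3). Without replicate 3 the adjusted p of Msh6 was 0.0623, and under median centring it was 0.168. Further probes of Msh3 gave 0.31, called in the fit over probes, and 0.26 and 0.02, not called. Over the 15 alternatives the ratio of Msh3 ran from 0.24 to 0.45, and its call was kept. Of the meiotic pair, Msh5 was called negative at -0.27 and Msh4 was not called at -0.04, where its probe was well above background on 3 arrays for Scriptaid and 4 for Nullscript. The probe of Msh5 was dim as well, with a mean log2 intensity of 7.18. Further probes of Msh5 gave -0.09 and -0.05 and were not called. Msh5 kept its call in all 15 alternatives, with ratios from -0.49 to -0.14.

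Base excision and single-strand break repair had 9 genes, with 6 called positive, 2 negative and 1 not, and a median of 0.25. Over all genes tested, 22.5% were called positive and 23.7% negative. The further list described below held 16 genes of this route, with 8 called positive, 4 negative and a median of 0.12. Of the 6 positive genes, Parp4 lost its call as a mean over its probes (0.16, adjusted p = 0.138). Parp2, which signals DNA breaks with chains of poly(ADP-ribose), gave 0.61, 0.60 and 0.73 (mean 0.65 ± 0.07 SD, n = 3, adjusted p = 0.000287). Lig1, the ligase that also joins Okazaki fragments, gave 0.61, 0.56 and 0.64 (mean 0.60 ± 0.04 SD, n = 3, adjusted p = 0.000219). Parp1, the main break sensor of the family, was more variable, with 0.19, 0.23 and 0.46 (mean 0.29 ± 0.15 SD, n = 3, adjusted p = 0.0146). Xrcc1, the scaffold of single-strand break repair, gave 0.37, 0.06 and 0.06 and was not called (mean 0.16 ± 0.18 SD, n = 3, adjusted p = 0.127). Its partner Lig3 was called positive at 0.40. On the negative side stood Ogg1, the glycosylase that removes oxidised guanine, with -0.42, -0.39 and -0.46 (mean -0.42 ± 0.03 SD, n = 3, adjusted p = 0.000429). The ratio of Parp3 was -0.21, and Parp2 exceeded it by 0.86 ± 0.03 (SD, n = 3). This rests on the brightest probe of Parp3, itself dim, with a mean log2 intensity of 7.54. A second probe of Parp3 gave 0.04 and was not called. Over the 15 alternatives the ratio of Parp3 ran from -0.31 to -0.09, and the call was kept.

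Nucleotide excision repair had 11 genes, with 4 called in each direction and 3 not called, a median of 0.05 and none over 1.5-fold. Ercc4, the catalytic subunit of the nuclease that cuts on the 5′ side of a lesion, gave 0.53, 0.47 and 0.48 (mean 0.50 ± 0.03 SD, n = 3, adjusted p = 0.000298). Ercc1, its obligate partner, had a mean of 0.47 ± 0.13 (SD, n = 3), and the difference between them was -0.03 ± 0.10 (SD, n = 3), smaller than its spread. The second and dimmer probe of Ercc4 gave 0.07 and was not called, and the mean over both probes was 0.28. Xpa, which verifies the damage, gave -0.28, -0.41 and -0.50 (mean -0.40 ± 0.11 SD, n = 3, adjusted p = 0.00246). Ercc8, which acts where RNA polymerase has stalled, gave -0.43, -0.36 and -0.41 (mean -0.40 ± 0.04 SD, n = 3, adjusted p = 0.000544). The further and dimmer probes of Ercc8 gave -0.24, called in the fit over probes, and 0.00, not called, and the mean over its 3 probes was -0.21. Ercc6, which acts at the same step, was not called at 0.10. The lesion sensor Xpc was called negative at -0.25, and Rad23b, a protein that stabilises it, was called positive at 0.21. With Scriptaid in Cy3 alone, Rad23b stood at 0.07 and was not called (adjusted p = 0.31), nor was it without replicate 3 (0.0527). Among the helicases of the repair factor TFIIH, Ercc2 was called negative at -0.29 and Ercc3 was not called at 0.05. Ercc2 was no longer called with Scriptaid in Cy3 alone (adjusted p = 0.0729) or when replicate 3 was left out (0.0552).

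The checkpoint genes, whose products halt the cell cycle at damaged DNA, comprised 7 members with 2 called in each direction, 3 not called and a median of 0.09. Chek1, the kinase that responds to stalled replication, gave 0.91, 0.44 and 0.61 (mean 0.65 ± 0.24 SD, n = 3, adjusted p = 0.00378). A second probe of Chek1 gave 0.72. Chek2, the kinase downstream of Atm, gave 0.12, 0.12 and 0.09 (mean 0.11 ± 0.02 SD, n = 3, adjusted p = 0.0306). That average hides opposite signs on the dyes, described further below. The call of Chek2 was lost without any one of the replicates (adjusted p = 0.0898, 0.107 and 0.131). This holds for the brightest probe of Chek2. Its dimmer probe gave 0.18, was positive on all 6 arrays and was called in the limma fit over probes (adjusted p = 0.0195). Atm, the kinase activated by double-strand breaks, gave 0.49, -0.04 and -0.17 and was not called (mean 0.09 ± 0.35 SD, n = 3, adjusted p = 0.634). Its replicates had different signs, and both arrays of replicate 1 were high, at 0.41 and 0.56. These are the values of the brightest probe of Atm. A dimmer probe gave 0.20, 0.09 and 0.24, a mean of 0.18. It was called positive in the limma fit over probes (adjusted p = 0.0193). Rad9a, a subunit of the sliding clamp that activates checkpoint signalling, gave -0.32, -0.57 and -0.47 (mean -0.45 ± 0.12 SD, n = 3, adjusted p = 0.00197). Rad17, which loads this clamp, was also called negative at -0.35, and Rad1, another subunit, was not called at 0.13.

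Rad21 had the most positive ratio of the 62 genes. It encodes the subunit that closes the cohesin ring around sister chromatids, and its replicates were 0.87, 0.64 and 0.75 (mean 0.75 ± 0.11 SD, n = 3, adjusted p = 0.000382). A further probe of Rad21 gave 0.56 and was called as well. Rad18, a ubiquitin ligase of post-replication repair, was not called at 0.11 ± 0.06 (SD, n = 3). A further probe of Rad18 gave 0.33 and was called in the fit over probes. As a mean over its probes, Rad18 was called positive at 0.22 (adjusted p = 0.0018). It was also called positive under median centring (adjusted p = 0.0263) and without replicate 1 (0.0378).

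A further list of 98 DNA repair genes outside the naming rule was likewise divided, with 45 called positive (45.9%), 28 negative (28.6%), 25 not called and a median of 0.12. Under median centring in place of loess the split was 50 to 18. Without replicate 3 it was 34 to 17. Nbn, the signalling subunit of the complex that holds Rad50, had the most positive ratio of the 98 at 1.79 ± 0.22 (SD, n = 3, adjusted p = 0.000186), and its replicates were 1.99, 1.56 and 1.80. It was followed by Neil3, a glycosylase for oxidised bases, at 1.24 ± 0.25, by the cohesin subunit Stag1 at 1.08 ± 0.13, and by the base excision nuclease Apex2 at 0.90 ± 0.16 (SD, n = 3 each). The most negative were Ube2t, the ubiquitin-conjugating enzyme of the Fanconi pathway, at -0.86 ± 0.06, and Rpa1, the large subunit of the single-strand binding protein, at -0.86 ± 0.08 (SD, n = 3 each). Mad2l2, a subunit of a translesion polymerase, stood at -0.79 ± 0.08, and Ccnh, the cyclin of the TFIIH kinase, at -0.51 ± 0.06 (SD, n = 3 each). As means over all probes of a gene, Nbn stood at 0.90, Neil3 at 0.58, Apex2 at 0.38 and Ube2t at -0.44, each still called. Ccnh stood at -0.80 with Scriptaid in Cy3 and at -0.23 with Scriptaid in Cy5. The checkpoint genes of this list had 7 of 8 called positive and a median of 0.46, beside 2 of 7 and 0.09 for the checkpoint members. Fanci and Rad54b carry other names on the array and are in neither list. Fanci had a ratio of 0.48 ± 0.10 (SD, n = 3, adjusted p = 0.00109) and Rad54b of 0.01 (adjusted p = 0.881).

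**Figure D3:**
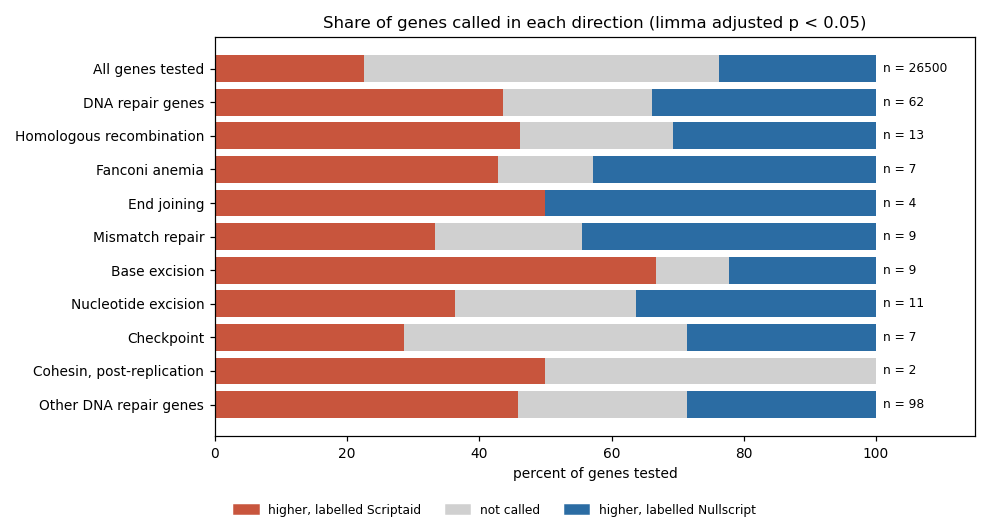
Share of genes tested (horizontal axis, percent) that were called positive, not called or called negative, for all 26500 genes, the 62 DNA repair genes, each repair route and the 98 other repair genes. Both coloured parts are larger for the 62 repair genes (43.5% and 33.9%) than for all genes (22.5% and 23.7%), and the routes hold between 2 and 13 genes.

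Genes of cell division and markers of kidney cell types had shifted ratios on the same arrays. Of 21 S-phase genes, 12 were called positive and 5 negative (median 0.41, range -0.33 to 1.13). Of 21 genes of G2 and mitosis, 16 were called positive and 1 negative (median 0.49, range -0.13 to 0.96). All 9 nephron progenitor, 8 ureteric bud and 6 stroma markers passed the background filter, but so did all 7 neuronal and 9 germ cell markers, so that passing the filter does not check the tissue label. Nephron progenitor markers had 8 of 9 called positive (median 0.71), stroma markers 5 of 6 (0.76) and endothelial markers 5 of 6 (0.81). Ureteric bud markers had 4 of 8 called positive and 1 negative (0.18), macrophage markers 4 of 7 and 1 (0.59), and neuronal markers 1 of 7 and 6 (-0.74). Red blood cell markers had 4 of 6 called negative (-0.30) and germ cell markers 2 of 9 (-0.05). The part of these cell types and of cell division in the repair gene ratios was not tested.

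Further probes gave a second look at 36 of the 62 genes. Of 49 further probes tested, 40 belonged to genes whose brightest probe was called in the fit over probes. Of these 40, 34 had the same sign as the brightest probe, 20 were called with that sign and none was called with the opposite sign by limma, also at an unadjusted p under 0.05 (0 probes). However, 34 of the 40 were closer to 0 than the brightest probe. Examples with matching values were Fancl at 0.60, Parp2 at 0.67, Ogg1 at -0.37 and Rad17 at -0.35. Lig3 exceeded its brightest probe with 0.73. In genes whose brightest probe was not called, 5 further probes were called. Among them were those of Rad51d at 0.37 and 0.47 and of Fancg at 0.42, beside -0.01 for the brightest probe of each. The further probes of Atm at 0.18 and of Rad18 at 0.33 were called as well, beside 0.09 and 0.11 for the brightest. Counted by probe, 45 of the 111 DNA repair probes were called positive and 27 negative, with a median of 0.06, beside 23.5% and 21.8% of all 39406 probes.

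**Figure D4:**
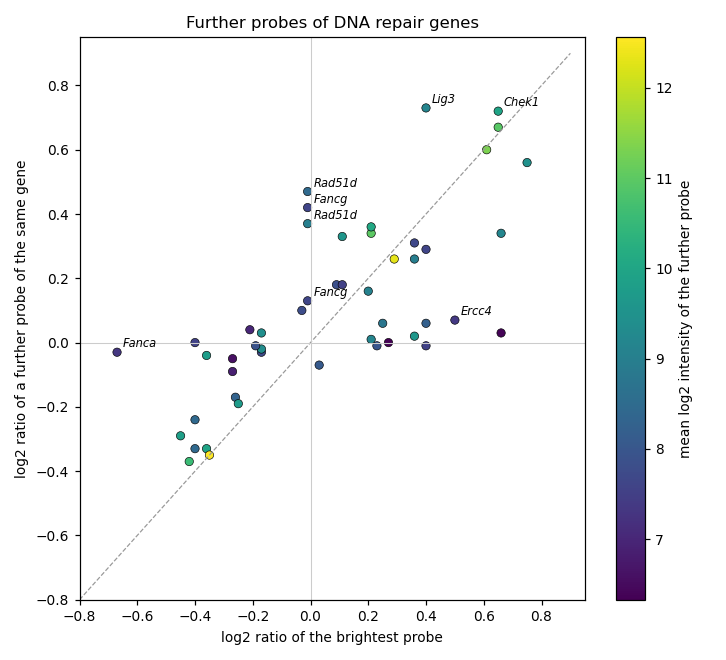
Log2 ratio of each of the 49 further probes (vertical axis) against that of the brightest probe of its gene (horizontal axis), with the dashed line marking equal values and colour giving the mean log2 intensity of the further probe. Fanca and Ercc4 lie near 0 on the vertical axis at -0.67 and 0.50 on the horizontal axis, and Rad51d and Fancg lie above 0 at a brightest-probe ratio of -0.01.

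The arrays with exchanged dyes allowed each ratio to be read in both orientations. Of the 48 called genes, 40 had the same sign on all 6 arrays. Chek2 read 0.28, 0.28 and 0.45 with Scriptaid in Cy3 and -0.04, -0.05 and -0.28 with Scriptaid in Cy5, so that the orientations did not overlap. Their difference was -0.46 on the log2 scale, with an adjusted p of 0.028 for a dye term fitted in limma. Fancg, not called, was also positive on the 3 arrays of one orientation and negative on those of the other, with an adjusted p of 0.186 for the dye term. Rad17 and Rad21 kept their sign on every array but differed in size between the orientations (adjusted p = 0.0352 and 0.0499). All of these are values of the brightest probes. For the further probes of Chek2, Rad17 and Rad21, the dye term had adjusted p of 0.987, 0.425 and 0.986 in limma. The further probe of Chek2 was positive on all 6 arrays.

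**Figure D5:**
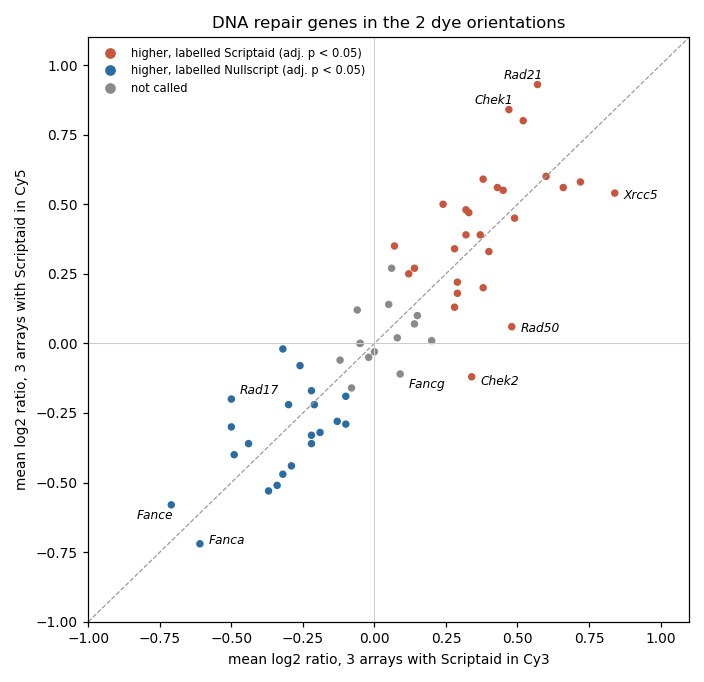
Mean log2 ratio of each of the 62 DNA repair genes on the 3 arrays with Scriptaid in Cy5 (vertical axis) against the mean on the 3 arrays with Scriptaid in Cy3 (horizontal axis). The dashed line marks equal values, and Chek2 lies in the quadrant of opposite signs, 0.46 below the line.

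Each array held 43379 spots other than control spots, of which 91.5% to 96.5% per channel were well above background. No DNA repair probe that represents a gene was saturated. With 3 replicates, the replicate number limits the precision of every ratio. Replicates 1 and 2 lay on one slide and replicate 3 on another, so that the values without replicate 3 are those of the first slide alone. They gave 21 genes called positive and 15 negative, and 36 of the 48 calls were kept. Under all 15 alternatives together, 30 of the 48 genes kept their call and direction, 18 positive and 12 negative.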

How the data were processed

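Two-colour Agilent 4x44k arrays were read from the deposited scanner files, which give the intensity of each spot and its local background and, per the file headers, come from Agilent Feature Extraction 9.1.3.1. The deposited log10 ratios of the series value table equal those of the scanner files, turned to Scriptaid over Nullscript, within 4.82e-06, with medians from -0.00959 to -0.00136 and no further centring. The labels and headers name no genome build for the probes.

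Mean intensities were corrected with normexp (offset 50) and normalised by loess in limma 3.58.1 (R 4.3.3). Control spots had weight 0, spots with an outlier mark were dropped, and saturated spots were kept. Log2 ratios of a probe were averaged over its spots and then over the pair of arrays of each replicate. Probes had to be well above background in one drug's channel on 3 or more arrays, and the brightest probe stands for its gene. Replicate means (n = 3) were tested against 0 with lmFit and eBayes and adjusted by Benjamini-Hochberg over genes. The SD given is that of the 3 replicates. The fit was tested on simulated data. Probes were named through accessions (84 of the 112) or current symbols (28).

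The slide was used as a block in one alternative, and the replicate as a block on the 6 arrays with a dye term (consensus correlation 0.119) in another. The labels give the arrays of a replicate as 1 biological replicate. Their deviations from the mean of their dye group correlated at 0.61, 0.13 and 0.01.

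The members and lists were chosen with earlier results of these data known. Named genes are the 8 largest called ratios per direction, the largest of each route, Brca1, Brca2, Atm, Chek1, Chek2, Parp1, Xrcc1 and Fanca, and the 4 largest per direction of the other list. Values of some members are not reported here. The series text mentions swapped dyes for 2 of 4 arrays. Here the dye labels of all 6 were used.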

Additional observations from a re-analysis of the deposited data

Results flagged for a closer look

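Chek2 was marked because its 2 dye orientations gave opposite signs on all arrays, with a difference (Scriptaid in Cy5 minus Scriptaid in Cy3) of -0.46 and an adjusted p of 0.028 for the dye term in limma. Fancg was marked for opposite signs as well, with a difference of -0.2 that did not pass (adjusted p = 0.186). For Rad17 the difference was 0.3 (adjusted p = 0.0352) and for Rad21 it was 0.36 (adjusted p = 0.0499), each with 1 sign on all 6 arrays. Each gene was marked on its brightest probe. For the further probes of Chek2, Rad17 and Rad21 the dye term did not pass (adjusted p = 0.987, 0.425 and 0.986). No group held the 4 to 10 samples that a search for single outlying samples needs.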

How the results depend on the processing

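Under 15 alternatives, the counts of DNA repair genes ran from 21 to 29 positive and from 15 to 22 negative, and those of probes from 30 to 46 and from 20 to 31, all within 1.5 times the values reported. The fewest calls were kept without replicate 3, where 36 of 48 remained. The median of the 62 genes was 0.13 under median centring, 0.13 as a mean over all probes of a gene and 0.04 on the arrays with Scriptaid in Cy5 alone, and it ran from 0.05 to 0.10 when single replicates were left out. The negative count of the other repair genes was 18 under median centring, and it ran from 17 to 27 when single replicates were left out. Among the single ratios of named genes, 1 reversed: that of Chek2 was -0.12 with Scriptaid in Cy5 alone (adjusted p = 0.154), beside 0.11 over both orientations. A further 18 values lost their call, 3 of Xrcc1 gained one, and 488 kept their side of the threshold. The cause of these changes was not tested.

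With the replicate as a block on the 6 arrays, 28 genes were called positive and 22 negative, and 47 of 48 calls were kept, the exception being Chek2 (adjusted p = 0.0937). With the slide as a block, 26 and 18 were called. As means over all probes of a gene, 45 of 48 calls were kept and 4 genes gained one. These were Fancg, Rad18 and Rad51d, called positive, and Rad9b, called negative. Msh4 could not be counted where all 6 arrays had to be well above background. No setting of the filter on dim probes changed a member's call, and dim probes limit ratios such as those of Msh4, Rad9b, Msh5 and Parp3. Msh4 and Rad9b were called negative at -0.28 and -0.25 under median centring.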
